A study of Mus musculus with 8 samples.

Results

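The 9 genes described here are 8 kallikreins, Klk5, Klk6, Klk7, Klk8, Klk10, Klk11, Klk13 and Klk14, and Spink5. Spink5 encodes an inhibitor of some kallikreins, and not each of the 8 is taken to be its target. They were taken by name from the 54838 genes of each count table, and all 9 were found there. The tables come from RNA sequencing of mouse skin epidermis isolated with trypsin, in 8 libraries. Controls at 25 DPI, Ovol1/2 iDKO at 25 DPI, controls at 52 DPI and Ovol1/2 iDKO at 52 DPI had 2 biological replicates each. The names iDKO and DPI are written as the labels give them, and the labels do not name the alleles, the Cre driver, the agent or the age. The title of the series names the skin barrier and inflammation among its subjects, and the comparison of these genes asks how the protease system of the barrier differed between genotypes.

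Kallikreins are secreted serine proteases. In the epidermis they are released by keratinocytes of the granular layer as inactive proenzymes, become active in the cornified layer, and cut the proteins that hold dead cells together, so that these are shed. Klk5 can activate itself and Klk7, and Spink5 encodes LEKTI, a secreted multidomain inhibitor whose loss in people causes Netherton syndrome, with a weak barrier and inflamed skin.

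The 8 kallikreins lie in one gene cluster on the plus strand of chromosome 7 (GRCm38), from Klk14 at 43690418 to Klk5, which ends at 43851181. Klk5 (ENSMUSG00000074155), Klk6 (ENSMUSG00000050063), Klk7 (ENSMUSG00000030713) and Klk8 (ENSMUSG00000064023) span 43841971 to 43851181, 43824499 to 43832030, 43811294 to 43816359 and 43797577 to 43803826. Klk10 (ENSMUSG00000030693) spans 43781035 to 43785410 and Klk11 (ENSMUSG00000067616) spans 43774604 to 43779263. Klk13 (ENSMUSG00000054046) and Klk14 (ENSMUSG00000044737) span 43712567 to 43727534 and 43690418 to 43695536.

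The coding stretch around the active-site serine shows how alike the proteases are and where Klk7 differs. It is given 5′ to 3′ from GENCODE M21 transcripts, joined across the intron between the last 2 exons, where both of these exons contribute to it. Capitals mark the codon for the base of the substrate pocket, at the start, and the codon of the catalytic serine.
Klk5: GACtcctgccagggtgatTCCggaggtcct
Klk6: GATtcctgtcagggtgatTCTggaggtccc
Klk7: AACacgtgcaatggtgacTCAggggggccc
Klk8: GACacgtgccagggtgacTCAggaggccct
Klk10: GACtcttgccagagtgacTCCggtggcccc
Klk11: GACtcctgtcagggtgacTCTggaggcccc
Klk13: GACtcctgtgagggtgatTCTgggggccca
Klk14: GACtcctgtcagggtgatTCTgggggaccc
The pocket codon was AAC, for asparagine, in Klk7 and GAC or GAT, for aspartate, in the other 7 kallikreins. An aspartate there is typical of trypsin-like proteases, which cut after arginine or lysine, and Klk7 is known as the chymotrypsin-like member. The fifth codon was AGT in Klk10 and GGT in the other 7. In Klk7 the stretch runs from 43813355 in exon 5 to 43815314 in exon 6 of 6, and in Klk10 from 43784438 in exon 5 to 43784887 in exon 6 of 6.

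Sequence before the start sites was looked at for motifs of 3 factor families. RefSeq (GRCm38.p6) gave 10 windows of 250 bases upstream for the 8 kallikreins. Spink5 had no entry. The windows of Klk7 (chr7:43811044-43811293, plus strand) and Klk8 (chr7:43797327-43797576, plus strand) are printed because both lie before every annotated start of their gene. In addition, Klk7 had the widest range in CPM, and Klk8 was called at 52 DPI by DESeq2 with a replicate block. The Klk8 window also lies inside the antisense gene 2310002F09Rik described later.
Klk7: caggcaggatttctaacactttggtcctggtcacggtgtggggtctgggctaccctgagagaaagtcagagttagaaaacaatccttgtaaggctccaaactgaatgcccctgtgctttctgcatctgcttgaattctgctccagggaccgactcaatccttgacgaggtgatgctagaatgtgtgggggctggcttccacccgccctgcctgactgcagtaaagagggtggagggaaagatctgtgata
Klk8: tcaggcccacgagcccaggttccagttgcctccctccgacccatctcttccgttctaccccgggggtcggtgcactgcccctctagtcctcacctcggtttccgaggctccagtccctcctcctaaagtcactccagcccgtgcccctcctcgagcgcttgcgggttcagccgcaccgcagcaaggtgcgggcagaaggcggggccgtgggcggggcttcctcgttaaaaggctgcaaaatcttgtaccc
No capitals stand in them because neither held a match. The OVOL core CCGTTA, searched on both strands, was in 0 of the 10 windows and in 2.18% of all 32851 windows of this length. The AP-1 motif TGANTCA was in 0 of the 10 windows and in 6.75% of all. The E-box CACCTG, bound by ZEB factors, was found in 1 window of Klk11 and in that of Klk13, and in 17.2% of all windows. These matches describe letters in the windows only.

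The libraries held 9824307 to 50711381 counts, and 17839 genes had enough counts to be tested, 8 of the 9 genes described here among them. Klk14 had 0 to 4 counts in any library and was not tested. Levels are in CPM, with library sizes scaled by TMM, and 3 counts, taken as the floor, were worth 0.0592 to 0.305 CPM. The replicate 2 libraries keep strand, with 95.4% to 95.7% of their stranded counts on one side, and the replicate 1 libraries do not, with 49.8% to 49.97%. Comparisons were therefore also made in 4 pairs, each an iDKO and a control library of equal time and replicate number. The CPM of Ovol1 and Ovol2 were not lower in the iDKO library of any pair, so these genes do not check the labels, and every direction is that of the libraries labelled iDKO. The Y-linked Ddx3y stood at 39.4 to 113 CPM in the 25 DPI libraries with 0 counts in those of 52 DPI, while Xist ran from 0.119 to 0.342 CPM in the former and from 131 to 1139 CPM in the latter, so sex and time cannot be told apart.

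The label of the tissue was checked against its markers. The basal keratins Krt5 and Krt14 were at 5244 to 17746 and 6661 to 21605 CPM, and the suprabasal keratins Krt1 and Krt10 at 921 to 2721 and 1573 to 4762 CPM. Genes of the granular layer, where kallikreins are made, were low, with Lor at 2.16 to 16.9 CPM and Flg at 0.0993 to 0.907 CPM. In such bulk samples fewer cells of a type and less RNA per cell cannot be told apart. Control 25 DPI replicate 1 and iDKO 52 DPI replicate 2 stood apart from the other libraries in several marker lists, which are given beside the results they touch.

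By level per kilobase of exon, Klk11 was the most abundant of the 9 genes in 3 of the 4 groups and Klk7 in the iDKO group at 52 DPI. Klk11 had a group mean of 33.02 and 43.1 CPM per kb in control and iDKO at 25 DPI and of 31.2 and 29.9 CPM per kb at 52 DPI. Klk7 had 26.6 and 23.9 CPM per kb at 25 DPI and 13.1 and 138.8 CPM per kb at 52 DPI. Spink5 stood at 23.7 and 21.6 CPM per kb at 25 DPI and at 13.2 and 9.82 CPM per kb at 52 DPI, close to Klk7 in every group but the last. Klk8 and Klk5 followed with Klk10, and in iDKO at 52 DPI these genes lay above Spink5. Klk6, Klk13 and Klk14 were lowest in that order in all 4 groups. The libraries of neighbours in this order overlapped in 6 of 8 cases in control and 4 of 8 in iDKO at 25 DPI, and in 2 and 3 of 8 at 52 DPI. Only Klk13 and Klk14 stood below 3 CPM per kb in all 8 libraries.

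**Figure D1:**
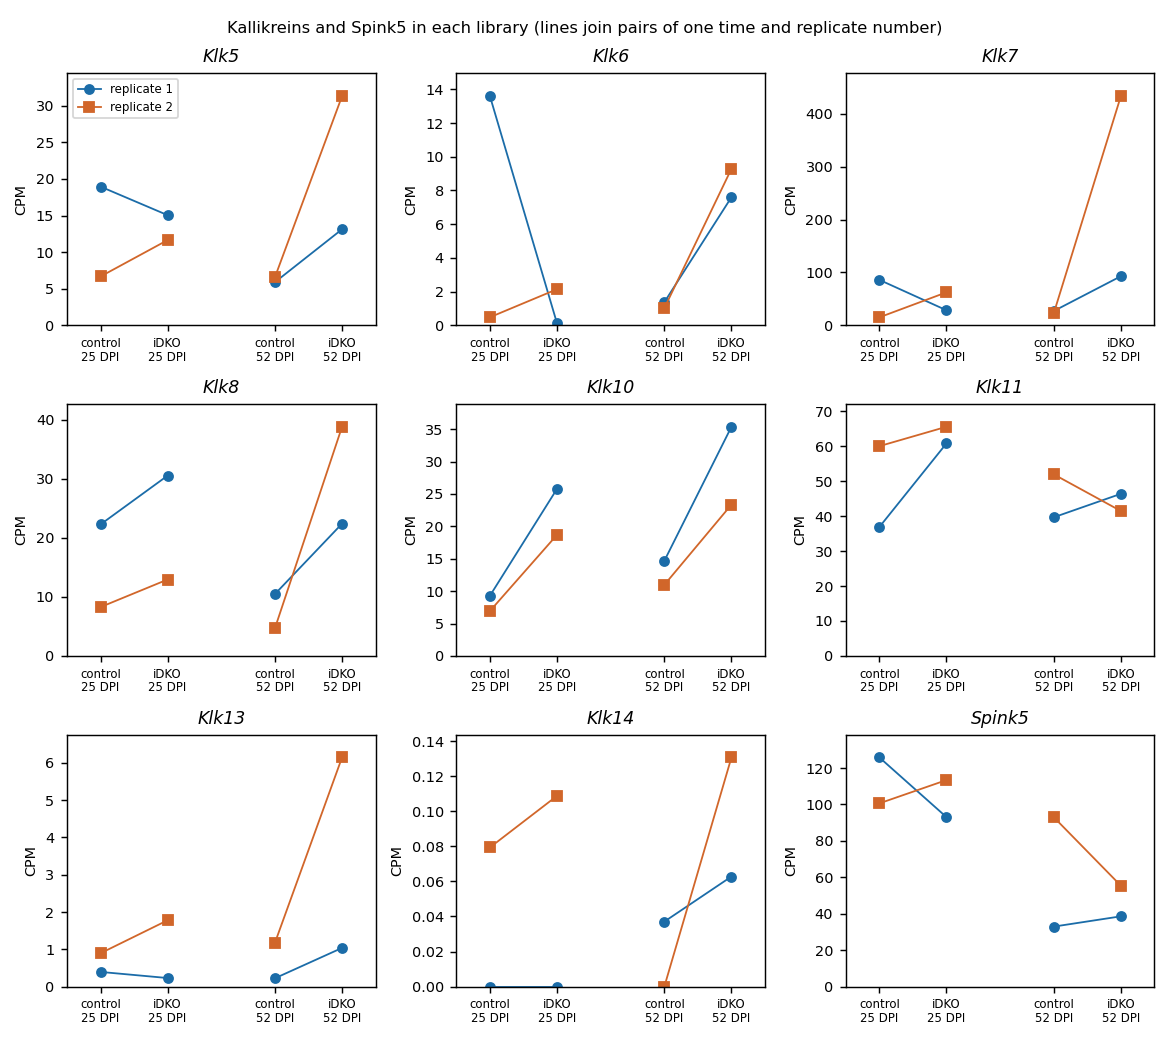
CPM (vertical axes, linear from 0) of the 9 genes in the 4 groups (horizontal axes), with circles for replicate 1, squares for replicate 2 and lines that join the libraries of a pair. Klk10 lies higher in the iDKO library of all 4 pairs, and Klk7 ranges from 15.01 to 433 CPM.

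Klk10 was the kallikrein with the most even difference between genotypes. It encodes a secreted protease of the family whose physiological substrates in skin are little known. At 25 DPI the controls, replicate 1 then 2, read 9.28 and 6.93 CPM of Klk10 and the iDKO libraries, in the same order, 25.8 and 18.7 CPM. Those of 52 DPI read 14.7 and 10.97 CPM and the iDKO libraries 35.4 and 23.3 CPM. The iDKO libraries lay above the control libraries at both times with no overlap. The log2 ratios of iDKO to control were 1.47 and 1.42 in the pairs at 25 DPI and 1.26 and 1.08 at 52 DPI. Across both times edgeR's quasi-likelihood test gave a log2 fold change of 1.32 (SE 0.31, unadjusted p = 0.00224) and an adjusted p of 1.00. In that comparison edgeR called 0% of all tested genes, and 130 genes or 0.729% had an unadjusted p under 0.05, Klk10 alone of the 8.

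With the replicate number as a block within time, DESeq2 called Klk10 higher in iDKO across both times, at 1.30 (SE 0.19, adjusted p = 1.77e-08), where it called 0.409% of all tested genes. It kept this call with each of the 8 libraries left out in turn, with adjusted p values of 8.74e-06 to 0.0219. At 25 DPI the same fit called it at 1.44 (SE 0.31, adjusted p = 0.00226), with 0.577% of all tested genes called, and this call was lost with any 1 of the 8 libraries left out (adjusted p = 0.107 to 0.376), at log2 fold changes of 1.42 to 1.47. These leave-one-out fits were chosen after the data were seen. At 52 DPI it gave 1.17 (SE 0.31), which was not called by DESeq2 (adjusted p = 0.0819). edgeR with the same block gave 1.32 (SE 0.16) across both times and did not call it (adjusted p = 0.218).

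Klk8, or neuropsin, a trypsin-like protease of the granular layer, was the other kallikrein higher in the iDKO library of all 4 pairs. Of all tested genes 6.73% were higher in all 4 pairs and 6.7% lower, and 2 of the 8 tested genes described here were higher and 0 lower. At 25 DPI the controls read 22.3 and 8.28 CPM of Klk8 and the iDKO libraries 30.6 and 13.0 CPM. At 52 DPI the readings were 10.5 and 4.70 CPM without and 22.4 and 38.8 CPM with the iDKO label. The groups overlapped at 25 DPI, where replicate 1 lay above replicate 2 in both genotypes, and did not overlap at 52 DPI. The log2 ratios were 0.45 and 0.64 in the pairs at 25 DPI and 1.09 and 3.02 at 52 DPI.

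At 52 DPI the log2 fold change of Klk8 was 2.01 (SE 0.75, unadjusted p = 0.0296), and edgeR did not call it (adjusted p = 1.00). With the block, DESeq2 called Klk8 at 2.03 (SE 0.49, adjusted p = 0.0219), with 0.196% of all tested genes called. That call was lost without control 52 DPI replicate 2 (1.06) and without iDKO 52 DPI replicate 2 (1.07), where DESeq2 gave an adjusted p of 1.00. It thus rested on the replicate 2 pair of that time.

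**Figure D2:**
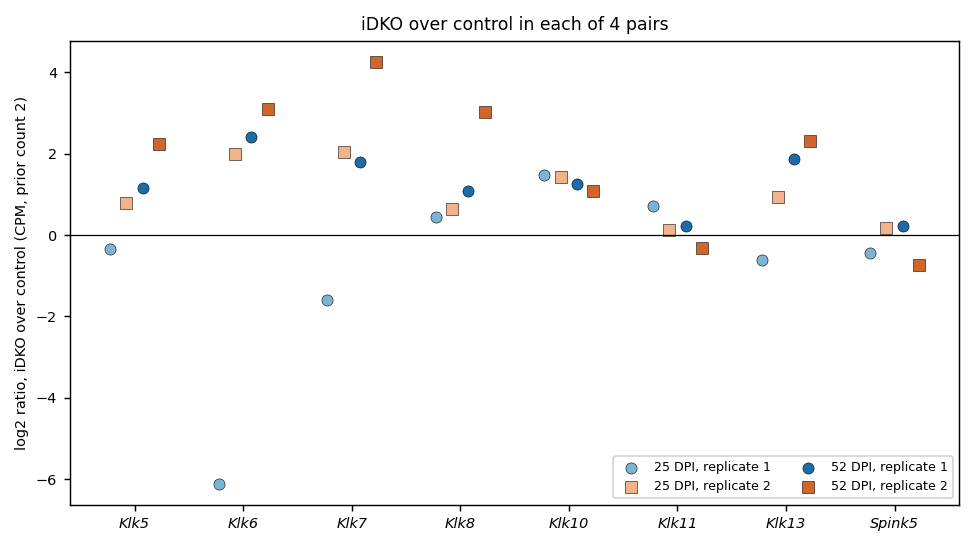
Log2 ratio of iDKO to control CPM (vertical axis, prior count 2) for the 8 tested genes (horizontal axis) in each of the 4 pairs, circles for replicate 1 and squares for replicate 2, pale for 25 DPI and dark for 52 DPI. The 4 points of Klk10 lie between 1.08 and 1.47, while the 25 DPI replicate 1 points of Klk5, Klk6, Klk7 and Klk13 lie below 0, that of Klk6 resting on 1 count in the iDKO library.

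At 52 DPI most of the kallikreins were higher in the libraries labelled iDKO. Both iDKO libraries lay above both control libraries for Klk5, Klk6, Klk7, Klk8 and Klk10, which is 5 of the 8 tested genes, beside 11.9% of all tested genes. None lay below both, beside 10.2% of all. The median log2 fold change of the 7 tested kallikreins was 2.01, with 6 above 0 and 1 below, and that of all tested genes was -0.01. By edgeR's quasi-likelihood test 0 of the 8 were called at an adjusted p under 0.05, as were 0% of all tested genes, and 143 genes or 0.802% had an unadjusted p under 0.05. Klk5, Klk7, Klk8 and Klk10 were among these. DESeq2 without a block called 1 gene at this time, or 0.00561%, and none of the 8.

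Klk7, the chymotrypsin-like protease that cuts corneodesmosin, had the widest range in CPM, from 15.01 to 433. As a ratio of highest to lowest the range of Klk6 was wider, from 0.114 CPM, a single count, to 13.6 CPM. At 52 DPI the controls read 26.9 and 22.6 CPM of Klk7 and the iDKO libraries 92.7 and 433 CPM. The control libraries were close together, and the iDKO libraries were far apart but both above them. The log2 fold change at 52 DPI was 3.41 (SE 1.06, unadjusted p = 0.0135), which edgeR's quasi-likelihood test did not call (adjusted p = 1.00). Without iDKO 52 DPI replicate 2 it was 1.91 and without iDKO 52 DPI replicate 1 it was 4.12. Without a filter on low counts, edgeR called Klk7 at this time (adjusted p = 0.0254), and DESeq2 with the replicate block did not (3.01, SE 1.25, adjusted p = 0.628).

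Klk5, the trypsin-like protease at the head of the cascade, read 5.89 and 6.58 CPM in the controls of 52 DPI and 13.1 and 31.3 CPM in the iDKO libraries. Its groups did not overlap, and the log2 ratios were 1.14 and 2.24 in the replicate 1 and replicate 2 pairs. The log2 fold change of Klk5 was 1.83 (SE 0.68, unadjusted p = 0.0293) by edgeR, which did not call it (adjusted p = 1.00), and 1.68 (SE 0.46) by DESeq2 with the block (adjusted p = 0.0948). Without iDKO 52 DPI replicate 2 the edgeR value was 1.08.

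Klk6, another trypsin-like protease of the cluster, read 1.37 and 1.02 CPM in the controls of 52 DPI and 7.60 and 9.29 CPM in the iDKO libraries. Here the libraries of each genotype agreed closely, and the log2 ratios of the pairs were 2.40 and 3.09. The log2 fold change of Klk6 was 2.81 (SE 1.55), and edgeR did not call it (adjusted p = 1.00). The standard error is shared with 25 DPI, where the libraries of Klk6 were far apart.

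Klk11, second to Klk7 per length in iDKO at 52 DPI and first in control, showed little difference at that time. The controls read 39.7 and 52.0 CPM of it and the iDKO libraries 46.4 and 41.5 CPM, so the groups overlapped. Its log2 fold change was -0.06 (SE 0.46), and edgeR's quasi-likelihood test gave an adjusted p of 1.00. The neighbouring genes Klk10 and Klk11 thus had different pair values, 1.26 and 1.08 against 0.23 and -0.32, though the difference between the genes was not tested.

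Genes of other cell types and layers moved with the high Klk7 of iDKO 52 DPI replicate 2. The summed level of the 6 genes of hair shaft and inner root sheath was 184 CPM in this library and 11.5 to 20.4 CPM in the other 7. Krt71 and Krt25, which mark the inner root sheath, were at 81.3 and 59.4 CPM there and at no more than 1.11 and 0.627 CPM elsewhere, with Krt71 at 0 in iDKO 25 DPI replicate 1. Krt27 and Tchh were also highest in this library, at 7.39 and 34.8 CPM. The hair shaft keratins Krt31 and Krt33a were not, at 0.458 CPM each. Both were highest in control 25 DPI replicate 1, at 2.29 and 2.09 CPM. The summed level of the 6 genes of activated keratinocytes was 5393 CPM in it, 2282 CPM in the other iDKO library at 52 DPI and 1546 and 1819 CPM in the controls. Krt17, a gene of activated and follicular keratinocytes, made up 5015 CPM of that sum. The members did not move together. Among the libraries of that time, Krt17 and Krt6a were highest and Krt16, at 58.3 CPM, was lowest in this library. Krt6b, Sprr1b and Sprr2d lay in between in this library. Basal keratinocyte genes, 5 in number, summed to 20313 CPM in it and to 37394 to 39383 CPM in the other 3 libraries of that time. The granular layer genes, 7 in number, summed to 130 CPM in it, 107 CPM in the other iDKO library and 72.7 and 85.8 CPM in control. These members disagreed too. Casp14, Ivl and Tgm3, at 51.7, 40.2 and 11.9 CPM, were highest of that time in this library. Lor, Flg and Flg2, at 2.16, 0.196 and 0.262 CPM, were lowest of that time in this library, and Cdsn lay in between. The 5 dermal fibroblast genes summed to 115 CPM in this library and to 15.1 to 16.2 CPM in the other 3 libraries of that time. Dcn made up 84.4 CPM of the 115 CPM. Col1a1, Col3a1 and Lum, at 9.09, 9.81 and 0.589 CPM, were also highest of that time in this library. Col1a2 was not, and at 11.1 CPM it lay within the range of the other libraries of that time. The 5 T cell genes summed to 350.4 CPM in this library against 64.9 to 228 CPM in the other 3. The part of these cells in the kallikrein values was not tested.

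**Figure D3:**
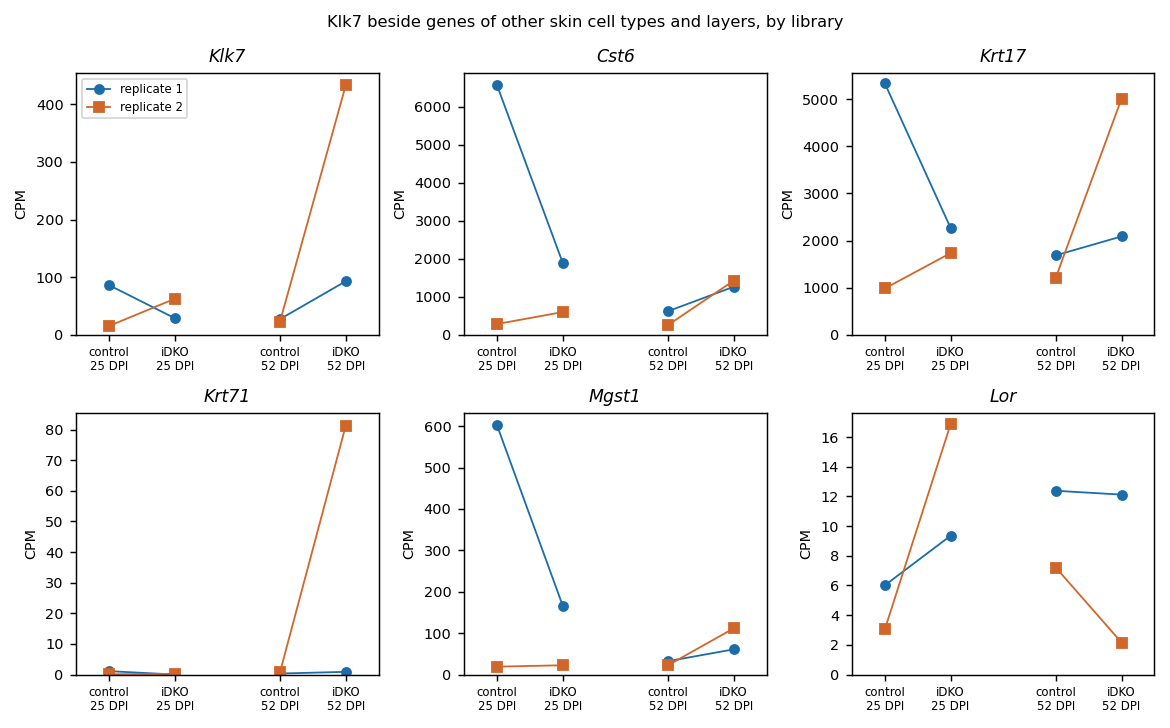
CPM (vertical axes, linear from 0) of Klk7, Cst6 (a protease inhibitor of the cornified layer), Krt17 (activated and follicular keratinocytes), Krt71 (inner root sheath), Mgst1 (listed for sebaceous gland) and Lor (granular layer) in the 4 groups, circles for replicate 1, squares for replicate 2, lines joining pairs. Control 25 DPI replicate 1 is highest for Cst6, Krt17 and Mgst1, and iDKO 52 DPI replicate 2 is highest for Klk7 and Krt71.

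At 25 DPI the kallikreins showed no common direction. Both iDKO libraries lay above both controls for Klk10 and Klk11, 2 of the 8 tested genes, beside 5.39% of all tested genes, and for 0 of the 8 they lay below, beside 5.15% of all. The median log2 fold change of the 7 tested kallikreins was 0.38, with 5 above 0 and 2 below, and that of all tested genes was -0.03. edgeR's quasi-likelihood test called 0 of the 8 and 0% of all tested genes at an adjusted p under 0.05, and 75 genes or 0.42% had an unadjusted p under 0.05, among them Klk10 alone of the 8. DESeq2 without a block called 2 genes, or 0.0112%, none of them of the 8.

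The pairs of Klk7 ran in opposite directions at 25 DPI. In the replicate 1 pair it went from 85.9 CPM in control to 28.4 CPM in iDKO, and in the replicate 2 pair it went from 15.01 to 62.3 CPM. The control libraries thus enclosed both iDKO libraries. The log2 fold change of Klk7 was -0.15 (SE 0.97), with an adjusted p of 1.00 by edgeR's quasi-likelihood test, and turned to 0.25 with the replicate block within time. Without control 25 DPI replicate 1 it was 1.57.

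Klk6 and Klk5 had the same shape. Klk6 was at 13.6 CPM in control replicate 1 and at 0.114 CPM, a single count, in iDKO replicate 1, and at 0.476 and 2.14 CPM in the replicate 2 pair. Klk5 was at 19.0 and 15.1 CPM in the replicate 1 pair and at 6.67 and 11.6 CPM in the replicate 2 pair. Both genes were highest in control replicate 1, and both were lower in iDKO in the replicate 1 pair and higher in the other. Klk11 read 36.9 and 60.0 CPM in the controls and 60.8 and 65.6 CPM in the iDKO libraries, a log2 fold change of 0.38 (SE 0.46) that edgeR did not call (adjusted p = 1.00).

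Control 25 DPI replicate 1 also stood apart in genes of other cells. Cst6 was at 6570 CPM in it and at 249 to 1890 CPM in the other 7 libraries, and Mgst1 was at 602 CPM in it and at 19.0 to 166 CPM elsewhere. The activated keratinocyte list summed to 5436 CPM in this library and to 1037 to 2352 CPM in the other 3 of that time. Krt17 made up 5339 CPM of that sum, and Krt6a was also highest in this library. Krt16 was not, at 36.1 CPM in this library and at 56.8 and 94.5 CPM in the iDKO libraries of that time. The sebaceous list, of 4 genes, summed to 932 CPM in it and to 329 to 497 CPM in the other 3 libraries of that time. Mgst1 made up 602 CPM of that sum. Mc5r and Elovl3 were also highest of that time in this library, and Scd1 was lowest, at 287 CPM against 306 to 468 CPM. The melanocyte list, also of 4 genes, summed to 356 CPM in it and to 28.9 to 44.0 CPM in the other 7 libraries. The T cell list summed to 553 CPM in it and to 56.9 to 350.4 CPM elsewhere. Cd3g made up 309 CPM of that sum, and Cd3g, Trac and Cd8a were highest in this library. Cd3e and Trdc were not, at 72.2 and 58.2 CPM in it and at 99.6 and 86.1 CPM in iDKO 52 DPI replicate 2. The Langerhans cell list, of 3 genes, summed to 1300.4 CPM in control 25 DPI replicate 1 and to 168 to 845 CPM elsewhere. Epcam made up 837 CPM of the Langerhans cell sum. The other members of that list lay within the range of the other libraries. Cd207 was at 36.7 CPM in this library and 4.92 to 68.0 CPM elsewhere, and Cd74 at 426 CPM against 47.2 to 508 CPM. The basal keratinocyte list was low in it, at 17207 CPM against 34565 to 38703 CPM in the other 3 libraries of that time. Of this list Krt14 was not lowest in it, at 11225 CPM against 9884 CPM in control 25 DPI replicate 2. The part of these cells in the kallikrein values of this library was not tested.

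The effects at the 2 times were compared directly. For Klk7 the effect at 52 DPI exceeded that at 25 DPI by 3.56 on the log2 scale (SE 1.41, unadjusted p = 0.0374), and for Klk6 by 5.36 (SE 2.18, unadjusted p = 0.041). For Klk5 the difference was 1.77 (SE 0.94) and for Klk8 1.497 (SE 1.03). Klk10 gave -0.26 (SE 0.68), Klk11 -0.44 (SE 0.65) and Spink5 -0.29 (SE 0.83). edgeR called none of these differences (each with an adjusted p of 1.00), and called 0 genes, 0% of all tested genes, with 139 genes or 0.779% at an unadjusted p under 0.05. With the replicate block within time, edgeR gave Klk7 2.76 (SE 1.38, unadjusted p = 0.0879), Klk6 3.99 (SE 2.49, unadjusted p = 0.154) and Klk5 1.45 (SE 0.57, unadjusted p = 0.041), and called none of them (adjusted p = 0.793, 0.804 and 0.793). DESeq2 with the block called 39 genes, or 0.219% of all, and none of the 8.

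Time within a genotype was compared over libraries that also differ in sex. In control, Klk10 lay higher in both 52 DPI libraries than in both 25 DPI libraries, 1 of the 8 tested genes beside 11% of all. Klk5 and Spink5 lay lower, 2 of the 8 beside 9.7% of all. In iDKO, Klk6 and Klk7 lay higher at 52 DPI, 2 of the 8 beside 11.6% of all, and Klk11 and Spink5 lower, 2 of the 8 beside 8.75% of all. The median log2 difference of the 7 kallikreins between 52 and 25 DPI was -1.001 in control and 0.74 in iDKO, and that of all tested genes was -0.14 and -0.12. The comparison within iDKO gave Klk7 a log2 fold change of 2.53 (SE 1.02, unadjusted p = 0.0402) and Spink5 one of -1.14 (SE 0.60), and edgeR's quasi-likelihood test called neither (adjusted p = 1.00 for both). It called 0% of all tested genes in either genotype, with 269 genes or 1.51% in control and 298 genes or 1.67% in iDKO at an unadjusted p under 0.05.

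Spink5 (ENSMUSG00000055561, GRCm38 chromosome 18, 43963235 to 44022501, plus strand), the inhibitor, had no common direction. At 25 DPI the controls read 126 and 101 CPM of Spink5 and the iDKO libraries 93.1 and 113 CPM. Those of 52 DPI read 32.9 and 93.0 CPM and the iDKO libraries 38.6 and 55.4 CPM. The groups overlapped at both times, and the pairs had log2 ratios of -0.43, 0.17, 0.23 and -0.75. Across both times its log2 fold change was -0.28 (SE 0.37), and edgeR did not call it (adjusted p = 1.00).

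Since library scaling cancels in a ratio within a library, the counts of each kallikrein were also divided by those of Spink5. For Klk7 the ratio was 0.683 in control and 0.305 in iDKO for replicate 1 at 25 DPI and 0.149 and 0.549 for replicate 2. At 52 DPI it was 0.818 in control and 2.40 in iDKO for replicate 1 and 0.243 and 7.82 for replicate 2. The Klk7 counts thus passed those of Spink5 only in the iDKO libraries at 52 DPI, without regard to the length of the genes. Per kilobase of exon Klk7 also lay above Spink5 in control 25 DPI replicate 1, at 45.3 against 26.3 CPM per kb. The same held in iDKO 25 DPI replicate 2 (32.9 against 23.7 CPM per kb) and control 52 DPI replicate 1 (14.2 against 6.88 CPM per kb). For Klk5 the ratio was 0.151 in control and 0.162 in iDKO for replicate 1 at 25 DPI and 0.0663 and 0.103 for replicate 2. Its values at 52 DPI were 0.179 and 0.340 for replicate 1 and 0.0708 and 0.566 for replicate 2. In each of the 4 pairs the iDKO library had the higher Klk5 ratio, by 1.07 to 7.99 times.

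For Klk10 the ratio to Spink5 was higher in iDKO in all 4 pairs, by 3.75 and 2.39 times at 25 DPI and by 2.06 and 3.57 times at 52 DPI. For Klk8 it was higher by 1.85, 1.39, 1.82 and 13.9 times in the same order of pairs. For Klk11 it was 2.23, 0.969, 0.998 and 1.34 times that of control, with no common direction. The genes differ in length, so these ratios compare libraries and are not ratios of molecules. Part of each value of the 52 DPI replicate 2 pair and of the 25 DPI replicate 1 pair comes from Spink5, which was lower in the iDKO library of both. In the 25 DPI replicate 1 pair the CPM of Klk5 itself were lower in iDKO, at 15.1 against 19.0, so its higher ratio there comes from Spink5.

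**Figure D4:**
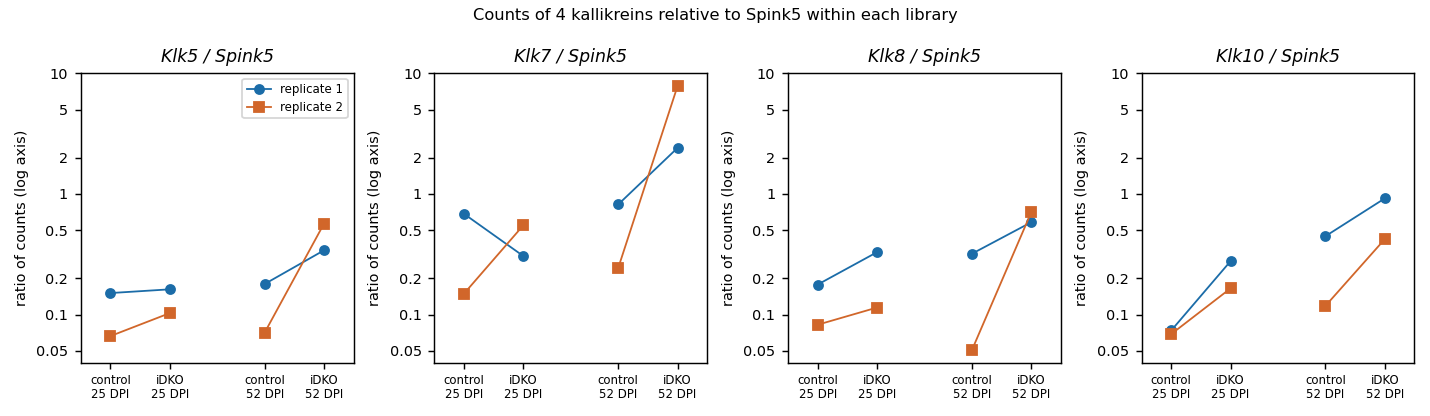
Counts of Klk5, Klk7, Klk8 and Klk10 divided by the counts of Spink5 in the same library (vertical axes, log scale) in the 4 groups, circles for replicate 1, squares for replicate 2, lines joining pairs. The ratio of Klk7 lies above 1 only in the iDKO libraries at 52 DPI, at 2.40 and 7.82. The ratios are of counts and are not corrected for the length of the genes.

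Klk13, a trypsin-like protease of stratified epithelia, was scarce, and much of its count lay on the opposite strand. At 25 DPI the controls read 0.392 and 0.893 CPM of Klk13 and the iDKO libraries 0.228 and 1.78 CPM. Those of 52 DPI read 0.222 and 1.18 CPM and the iDKO libraries 1.04 and 6.15 CPM, and the groups overlapped at both times. In the replicate 2 libraries, which keep strand, 86.7% of the counts of Klk13 in control and 83.7% in iDKO at 25 DPI lay on the strand opposite to the gene, and 80.0% in control at 52 DPI. In iDKO at 52 DPI that share was 18.1%, with 77 counts on the strand of the gene against 6, 8 and 3 in the other replicate 2 libraries. The opposite-strand counts were 39, 41, 12 and 17 in the same libraries.

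The log2 fold change of Klk13 at 52 DPI was 2.38 (SE 1.39), and edgeR did not call it (adjusted p = 1.00). With the counts of the strand of the gene in the replicate 2 libraries it was 3.69 (SE 1.21), again not called by edgeR (adjusted p = 1.00), and without iDKO 52 DPI replicate 2 the value from both strands was 0.61. In the replicate 1 libraries, with 2 to 33 counts of Klk13, the strands cannot be told apart.

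An antisense gene, 2310002F09Rik (ENSMUSG00000097178, chromosome 7, 43695209 to 43797958, minus strand), runs through Klk13, Klk11 and Klk10 to the start of Klk8. It shares 382 exonic bases with Klk8 and 287 with Klk14, and 0 with the other 6 kallikreins. Klk8 had 550, 465, 82 and 741 counts on its own strand in the replicate 2 libraries, in the order control and iDKO at 25 DPI and control and iDKO at 52 DPI, and 417, 357, 60 and 594 in the column without strand. The values of Klk8 are therefore lower in the column used here, in all 4 of these libraries. Klk10 had 10.3% of its counts on the opposite strand in control at 25 DPI and 2.86% to 3.69% in the other replicate 2 libraries. With the strand of the gene in those libraries and the block, DESeq2 called the same 3 results as before, Klk10 at 25 DPI and across both times and Klk8 at 52 DPI.

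**Figure D5:**
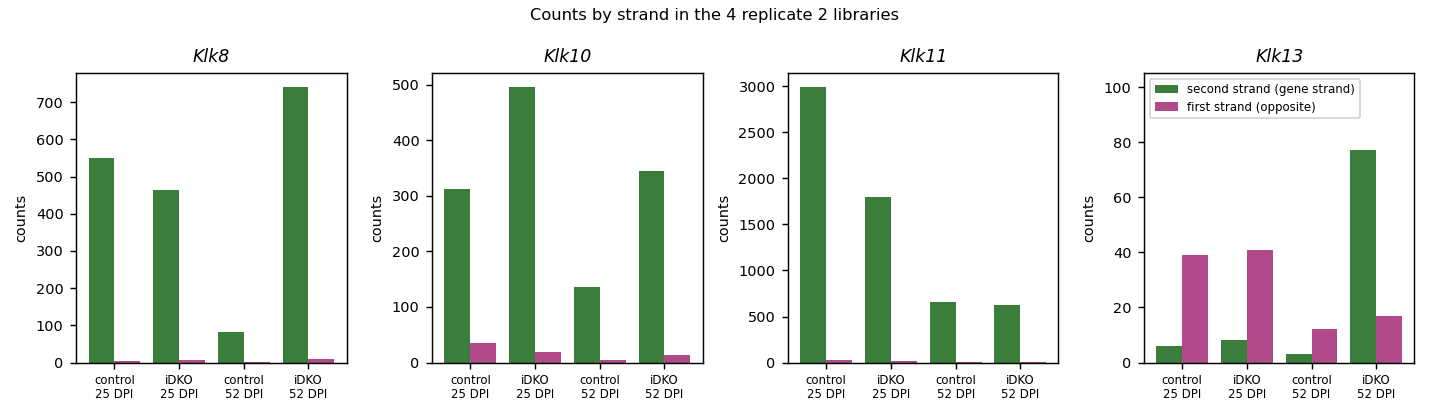
Counts (vertical axes, linear from 0) of Klk8, Klk10, Klk11 and Klk13 on the strand of the gene (green) and on the opposite strand (purple) in the 4 replicate 2 libraries (horizontal axes). Klk13 has more counts on the opposite strand in 3 libraries, 39, 41 and 12 against 6, 8 and 3, and fewer in iDKO at 52 DPI, 17 against 77.

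Klk14, a trypsin-like protease known to activate others of the family, had 0 and 4 counts in control and 0 and 3 in iDKO at 25 DPI, and 1 and 0 in control and 2 and 2 in iDKO at 52 DPI. All but 1 of these lay at or under the floor of 3 counts, so no difference was detectable at this depth.

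The other genes of the cascade were read from lists of 57 genes, of which 38 were tested. Across all lists 3 of the 38 were higher in the iDKO library of all 4 pairs and 3 lower, which is near the 6.73% and 6.7% of all tested genes, so these counts do not set the lists apart. Of the 38, 0 were called by edgeR, or by DESeq2 with the block, in the comparisons of genotype. Of 9 other kallikreins only Klk9 and Klk12 had enough counts to be tested, and neither had one direction in all pairs. Of 8 tested activating proteases 1 was lower in all 4 pairs, Tmprss11f, a membrane serine protease, with 2.55 and 4.47 CPM in the controls against 0.912 and 1.34 CPM in the iDKO libraries of 25 DPI. For 52 DPI the values of Tmprss11f were 2.37 and 3.13 CPM against 1.16 and 3.07 CPM. St14 and Prss8, which encode matriptase and prostasin, had mixed directions, with pair log2 ratios of -0.51 to 0.63 for St14 and -0.72 to 1.00 for Prss8.

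Among 9 tested substrates and receptors, Cdsn and Dsc1 were higher in the iDKO library of all 4 pairs. Cdsn encodes corneodesmosin, the adhesive protein that Klk5 and Klk7 cut. The controls of 25 DPI read 11.96 and 15.4 CPM of Cdsn and the iDKO libraries 15.7 and 61.1 CPM. For 52 DPI the values were 17.1 and 16.5 CPM against 34.5 and 23.5 CPM. The groups did not overlap at either time, and across both times the log2 fold change was 1.14 (SE 0.45, unadjusted p = 0.0322), which edgeR's quasi-likelihood test did not call (adjusted p = 1.00). Dsc1, for the junction protein desmocollin 1, read 23.4 and 64.6 CPM in the controls against 35.1 and 104 CPM at 25 DPI, and 78.1 and 79.3 CPM against 107 and 199 CPM at 52 DPI. Its log2 fold change across both times was 0.81 (SE 0.47), also not called by edgeR (adjusted p = 1.00) or by DESeq2 with the block (adjusted p = 0.109).

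F2rl1 encodes PAR2, the receptor that Klk5 cuts and through which it can induce Tslp, a cytokine. F2rl1 read 40.1 and 167 CPM in the controls against 73.0 and 246 CPM at 25 DPI, and 95.8 and 222 CPM against 53.2 and 165 CPM at 52 DPI. It was thus higher in iDKO in both pairs at 25 DPI and lower in both at 52 DPI. Tslp read 12.7 and 3.22 CPM against 7.64 and 5.08 CPM at 25 DPI, and 4.26 and 1.25 CPM against 3.80 and 1.83 CPM at 52 DPI, with opposite directions in the pairs of each time. Dsg1a, for the junction protein desmoglein 1, ranged from 191 to 1136 CPM and was higher in iDKO in 1 of 4 pairs. Flg, for filaggrin, had pair log2 ratios of -0.19 to 2.43 at under 1 CPM in all libraries. Lor, for the envelope protein loricrin, read 6.01 and 3.06 CPM against 9.35 and 16.9 CPM at 25 DPI, and 12.4 and 7.21 CPM against 12.1 and 2.16 CPM at 52 DPI.

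Of 11 other tested inhibitors Wfdc5 was higher and Slpi lower in iDKO in each of the 4 pairs, both near or under 1 CPM on average. Spint1, which encodes an inhibitor of matriptase, ranged from 41.2 to 86.3 CPM, with pair log2 ratios of -0.60 to 0.71. Cst6, for cystatin M, had pair log2 ratios of -1.80, 1.09, 1.04 and 2.51, and Klk7 had -1.59, 2.05, 1.78 and 4.25 in the same order, negative in the same pair. Of 8 tested other proteases of the cornified layer only Ctsh, for cathepsin H, had one direction in all 4 pairs, with log2 ratios of -0.27, -0.21, -0.21 and -0.04.

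The genes most like Klk7 in pattern were Evl, Cxxc5 and Plekhg1, with correlations of 0.99, 0.99 and 0.97 of log2 CPM over the 8 libraries after subtraction of the mean of each replicate number, among 12338 genes compared. For Klk5 they were Chn2, Slc25a35 and Pla2g2d (0.97, 0.97 and 0.96), and for Spink5 Nicn1, Med11 and Paqr7 (0.99 each). These are the highest values out of many genes in libraries that differ in depth and in the levels of cell type markers, and are a description. Plekhg1 was at 37.1 CPM in iDKO 52 DPI replicate 2 and at 1.33 to 5.77 CPM in the other libraries, so its likeness to Klk7 leans on that library. Evl, at 30.0 CPM there and 6.26 to 11.6 CPM elsewhere, was also highest in that library. So was Chn2, at 12.3 CPM there and 1.82 to 8.17 CPM elsewhere. Cxxc5 was not, at 8.83 CPM there and 3.06 to 9.02 CPM elsewhere.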

How the data were processed

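RNA was from epidermis isolated with trypsin. Per the labels' protocols, Trizol was used for RNA and a SMART-seq v4 kit for libraries. The labels name the same kit throughout, although the replicate 2 libraries keep strand and the replicate 1 libraries do not. The submitters' processing notes name GRCm38 and mm10 with STAR 2.5.2a, Trimmomatic 0.35, FastQC 0.11.9 and DESeq2 1.24.0. The authors deposited raw counts per gene, 1 table per library with 3 columns: counts regardless of strand, used here, and counts on each strand. Settings and annotation release were not given in the sources at hand. Symbols were matched for 54723 of 54838 genes, and 115 kept their identifier.

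The 9 genes, the gene lists, rules and tests were chosen with earlier results of these data known. Every one of the 9 genes is described. Of the lists, genes of one direction in all 4 pairs whose mean log2 CPM reached 1, and chosen substrates, activators, receptor and inhibitors, are named, and for Klk5, Klk7 and Spink5 the 3 genes most like each. Cst6, Klk9, Klk12, Wfdc5, Slpi and the cell type markers were named after their values were seen.

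Counts were tested with edgeR 4.0.16 (R 4.3.3) by the quasi-likelihood test after filterByExpr and TMM, on all 8 libraries with 1 mean per group (4 residual degrees of freedom) or, across both times, genotype and time (5), with Benjamini-Hochberg adjustment over 17839 genes and a threshold of 0.05. The fit was tested on simulated data, with the same spread for all genes and no effect of replicate number. The simulation therefore does not show how the fits behave on these libraries. Pair ratios are of log2 CPM with a prior count of 2. Alternatives were DESeq2 1.42.0, blocks, size factors, no filter, the second-strand column and leaving out each library. Deviations of same-numbered libraries from their group means correlated at 0.395 to 0.793 in all 6 pairs of groups, so numbers were taken to pair libraries. P values measure only the spread between these samples, and with the block that between pairs, with 2 residual degrees of freedom at each time and 3 across both. Reads shared by near-identical kallikreins cannot be separated in such tables. Totals were 9824307 to 50711381 counts, and floors cover counting error only.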

Additional observations from a re-analysis of the deposited data

Results flagged for a closer look

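Klk13 had counts on the strand opposite to the gene in the replicate 2 libraries, in a column that the comparisons do not use. They came to 1.49 CPM in iDKO at 25 DPI, where control replicate 2 had 0.774 CPM, and to 1.11 CPM in iDKO at 52 DPI, where control had 0.940 CPM. Each value is 1 library against 1, so the difference was not tested.

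F2rl1 moved in opposite directions at the 2 times. Its log2 ratios of iDKO to control were 0.86 and 0.56 in the pairs at 25 DPI and -0.85 and -0.42 in those at 52 DPI. The difference between the effects was -1.16 on the log2 scale (SE 1.35), which edgeR's quasi-likelihood test did not call (adjusted p = 1.00), and -1.35 (SE 0.40) by DESeq2 with the pairing as a block, also not called (adjusted p = 0.116). Groups of 2 libraries are too small for a formal test of a single library against its group.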

How the results depend on the processing

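edgeR called 0 genes in the 6 comparisons, and 0 with any 1 library left out. DESeq2 called 2, 1 and 8 genes at 25 DPI, at 52 DPI and across both times, 0 for the difference between times, and 14 and 11 for time in control and iDKO, none of them among the kallikreins and Spink5. The replicate block within time changed the edgeR count only across both times, to 1 gene, none of the 8 tested here. With this pairing DESeq2 called 103, 35, 73 and 39 genes at 25 DPI, at 52 DPI, across both times and for the difference, with 1, 1, 1 and 0 of the kallikreins and Spink5. Without a filter on low counts edgeR called 8, 25, 16, 19, 62 and 37 genes in the 6 comparisons, with 1 kallikrein, Klk7 at 52 DPI. The second-strand column together with the block was chosen after seeing the data and gave 1 gene across both times by edgeR, and 108, 34, 76 and 35 genes by DESeq2 with 1, 1, 1 and 0 of the kallikreins and Spink5. Of 368 values of single genes under other settings 355 kept direction and call, 7 became called and 6 turned. The turned ones were Klk7 at 25 DPI, at 0.25 and 0.22 with the replicate block by edgeR and DESeq2 and 0.26 and 0.23 with the second-strand column added, and Klk13 for time in control, at -0.17 with the number as the only block and -0.081 with the second-strand column. The cause was not tested. Of 384 values with 1 library left out 30 turned. With 1 library left out at a time, log2 fold changes whose sign turned ranged, for iDKO against control at 25 DPI, Klk5 -0.48 to 0.96, Klk6 -5.89 to 1.31, Klk7 -0.89 to 1.57, Klk8 -0.15 to 1.34, Klk13 -1.49 to 1.47, Spink5 -0.28 to 0.067. At 52 DPI the ranges were Klk11 -0.24 to 0.16, Spink5 -0.99 to 0.53. Across both times Klk6 -1.06 to 2.19, Klk11 -0.022 to 0.29, Spink5 -0.48 to 0.14. For the difference between times Klk10 -0.60 to 0.011, Klk13 -0.063 to 3.89, Spink5 -0.86 to 0.63. For time in control Klk6 -3.46 to 1.32, Klk7 -1.76 to 0.72, Klk11 -0.39 to 0.35, Klk13 -1.52 to 0.85. For time in iDKO Klk8 -0.0076 to 1.23. A library left alone in its group was assumed to vary like the other groups, and 2 libraries in each group limit all of these values.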
